A study of Mus musculus with 2 samples.

Results

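Cd52, Cd177, Ly6g, Cd24a, Ly6c2, Plaur and Cd48 encode proteins that myeloid cells carry on their surface. They were taken by name, as 7 of the 32285 genes in the deposited counts, and all 7 were found there. The cells were sorted as osteal macrophages (Omacs), the macrophages that lie on bone, from femurs and vertebrae of female BALB/c mice by antibodies to CD11b, F4/80 and CD68. Mice were ovariectomized (OVX) or sham operated at 10 weeks of age and their cells were taken 4 weeks after surgery, with 20 mice pooled per condition and no further treatment. Periosteum was stripped and femoral marrow rinsed out before the bone was digested with trypsin and collagenase, and no antibody to another cell type is named for the gate. OVX removes the ovarian source of estrogen and is a model of postmenopausal bone loss. The OVX pool carried hashtag antibody 1 and the sham pool hashtag antibody 2, and both pools were captured together in droplets for 3′ tag sequencing. Each condition is therefore 1 pool without replicates, in which mice cannot be told apart.

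A glycosylphosphatidylinositol (GPI) anchor is a preformed glycolipid that replaces the C-terminal end of a protein in the endoplasmic reticulum, so that the mature protein is held in the outer leaflet of the plasma membrane and has no cytoplasmic tail. Such proteins signal through partners in the membrane or act as ligands for receptors on other cells. In neutrophils, whose surface proteins change as the cells mature, several GPI-anchored proteins serve as stage markers in flow cytometry.

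The members fall into groups by structure and by place in the genome (GRCm38, GENCODE annotation). Cd52 (ENSMUSG00000000682, chr4:134082448-134095082, minus strand) and Cd24a (ENSMUSG00000047139, chr10:43578284-43584265, plus strand) encode very short, heavily glycosylated peptides that are known as ligands of Siglec receptors. Ly6g (ENSMUSG00000022582, chr15:75155240-75159126, plus strand), Ly6c2 (ENSMUSG00000022584, chr15:75108158-75111970, minus strand), Cd177 (ENSMUSG00000052212, chr7:24743983-24760311, minus strand) and Plaur (ENSMUSG00000046223, chr7:24462484-24475968, plus strand) encode proteins of the Ly6/uPAR fold. Cd48 (ENSMUSG00000015355, chr1:171682009-171705258, plus strand) encodes an immunoglobulin-fold ligand of CD244 and CD2. Ly6g and Ly6c2 lay 43.3 kb apart with 0 protein-coding genes between them, and Cd177 and Plaur lay 268.0 kb apart with 13 between them.

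Both neighbouring pairs ran in opposite directions in relative level along neutrophil maturation. The rise of Plaur (log2 ratio 0.49) was, however, below the median of all genes compared (0.54). The 250 bases before the start of these 4 genes are shown, as RefSeq gives them for GRCm38.p6, 5′ to 3′ on the gene's own strand. Capitals mark each match, on either strand, to GAGGAAGT (the core that PU.1 binds), to TTGCNNAA (a C/EBP core) or to TATAAA. The windows are chr15:75155011-75155260 (plus strand) for Ly6g, chr15:75111972-75112221 (minus strand) for Ly6c2, chr7:24760312-24760561 (minus strand) for Cd177 and chr7:24462233-24462482 (plus strand) for Plaur.
Ly6g: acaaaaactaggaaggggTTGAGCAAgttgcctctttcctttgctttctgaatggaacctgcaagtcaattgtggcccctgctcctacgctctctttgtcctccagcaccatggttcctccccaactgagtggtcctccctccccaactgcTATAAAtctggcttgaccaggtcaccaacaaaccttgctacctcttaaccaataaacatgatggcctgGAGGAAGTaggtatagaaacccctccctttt
Ly6c2: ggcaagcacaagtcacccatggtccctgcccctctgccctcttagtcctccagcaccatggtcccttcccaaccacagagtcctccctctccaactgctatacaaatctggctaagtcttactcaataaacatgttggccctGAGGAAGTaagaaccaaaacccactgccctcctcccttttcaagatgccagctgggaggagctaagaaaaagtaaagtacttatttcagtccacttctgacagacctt
Cd177: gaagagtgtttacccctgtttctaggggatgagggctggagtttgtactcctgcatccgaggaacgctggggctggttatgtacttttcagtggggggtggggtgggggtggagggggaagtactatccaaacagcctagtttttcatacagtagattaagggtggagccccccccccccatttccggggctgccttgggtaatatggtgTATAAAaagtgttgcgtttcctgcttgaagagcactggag
Plaur: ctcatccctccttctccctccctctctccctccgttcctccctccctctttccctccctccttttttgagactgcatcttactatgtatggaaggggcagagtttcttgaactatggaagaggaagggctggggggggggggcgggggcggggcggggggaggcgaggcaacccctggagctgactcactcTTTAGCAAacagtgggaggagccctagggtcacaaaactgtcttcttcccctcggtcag

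Of the 7 members, 5 had a window in the promoter table, the fifth being Cd48. GAGGAAGT was found in Ly6g and Ly6c2, in both on the gene's own strand, first base at -31 and -108 from the start. It occurred in 2.44% of the 32851 windows of the same length. TTGCNNAA, found on the other strand of Ly6g (-232) and Plaur (-59), occurred in 9.56% of windows, and TATAAA, found in Ly6g (-99) and Cd177 (-40), in 12.4%. The Cd48 window held none of these motifs. In a global alignment 60.8% of the 250 bases of Ly6g had an identical base in Ly6c2, against 54.8% for Cd177 and Plaur and 49.2% to 58.0% for the other pairs among these 5 windows. RefSeq gives Ly6g and Ly6c2 2 windows each, of which the one nearest the annotated start was used. Positions are counted from the RefSeq start. For Ly6g the window ends at 75155260, past the GENCODE start at 75155240, so its last bases lie within the gene by that annotation. A match is a description of these letters only.

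The library held 2349 barcodes with 500 to 141565 unique molecular identifiers (UMIs, each 1 captured RNA molecule) and a median of 4387. The hashtags placed 1059 barcodes in OVX (median 4812 UMIs) and 981 in sham (median 3704), while 78 carried both and 231 neither. The labels give 1037 OVX and 1084 sham cells as loaded. Clustering, which used none of the 7 members, gave 6 clusters. Of these, 4 (2077 cells) held UMIs of all 13 listed neutrophil markers, with 11 to 13 of them at 100 or more UMIs per 1000000 (CPM) and a summed level of 171258 to 316938 CPM. They are called neutrophil-like here and are named by a leading gene or feature as the cycling (384 cells), stefin (606), Retnlg (469) and Ccl4 (618) clusters. Against the label "macrophage", the 11 macrophage markers summed to 81.0 to 153 CPM in these 4 clusters, with 0 of 11 at 100 CPM. Adgre1 (F4/80) stood at 1.46 to 12.3 CPM in them, and C1qc was at 0 in every cluster of the library. A cluster of 62 cells led by Ppbp, Pf4 and Arg1 had 3 of the 11 macrophage markers at 100 CPM or more (a sum of 8191 CPM) and 10 of the 13 neutrophil markers (a sum of 28588 CPM). Its C1qa, C1qb, C1qc and Siglec1 were at 0 and its Adgre1 at 46.4 CPM. Its monocyte markers summed to 1069 CPM, with 2 of 6 at 100 CPM or more. Its megakaryocyte markers summed to 6913 CPM from Pf4 and Ppbp alone, with Itga2b and Gp9 at 0, and it is called the Arg1/Pf4 cluster. The sixth cluster, of 210 cells led by Prg4 and Saa1, was stromal-like. Markers of B cells, T or NK cells, erythroid and endothelial cells summed to at most 74.6 CPM in any cluster. Dendritic markers summed to 111 CPM in the cycling and 179 CPM in the Arg1/Pf4 cluster, mostly from H2-Ab1 (110 and 179 CPM). Monocyte markers summed to 78.1 to 143 CPM in the neutrophil-like clusters.

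All 7 genes were detected, but at very different depths of evidence. Over the 2349 barcodes Cd177 had 13299 UMIs, Cd52 had 12221, Ly6g had 12151, Plaur had 8759, Cd24a had 7064, Ly6c2 had 643 and Cd48 had 50. No single cell carried more than 0.849% of the UMIs of any of the 5 well-covered genes. For Ly6c2 the share in the top cell was 2.33% and for Cd48 it was 8.0%, so statements on Cd48 rest on few molecules. Levels below are summed UMIs of a group of cells as CPM with an exact 95% interval, which covers counting error only, since cells of 1 pool are not replicates.

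**Figure D1:**
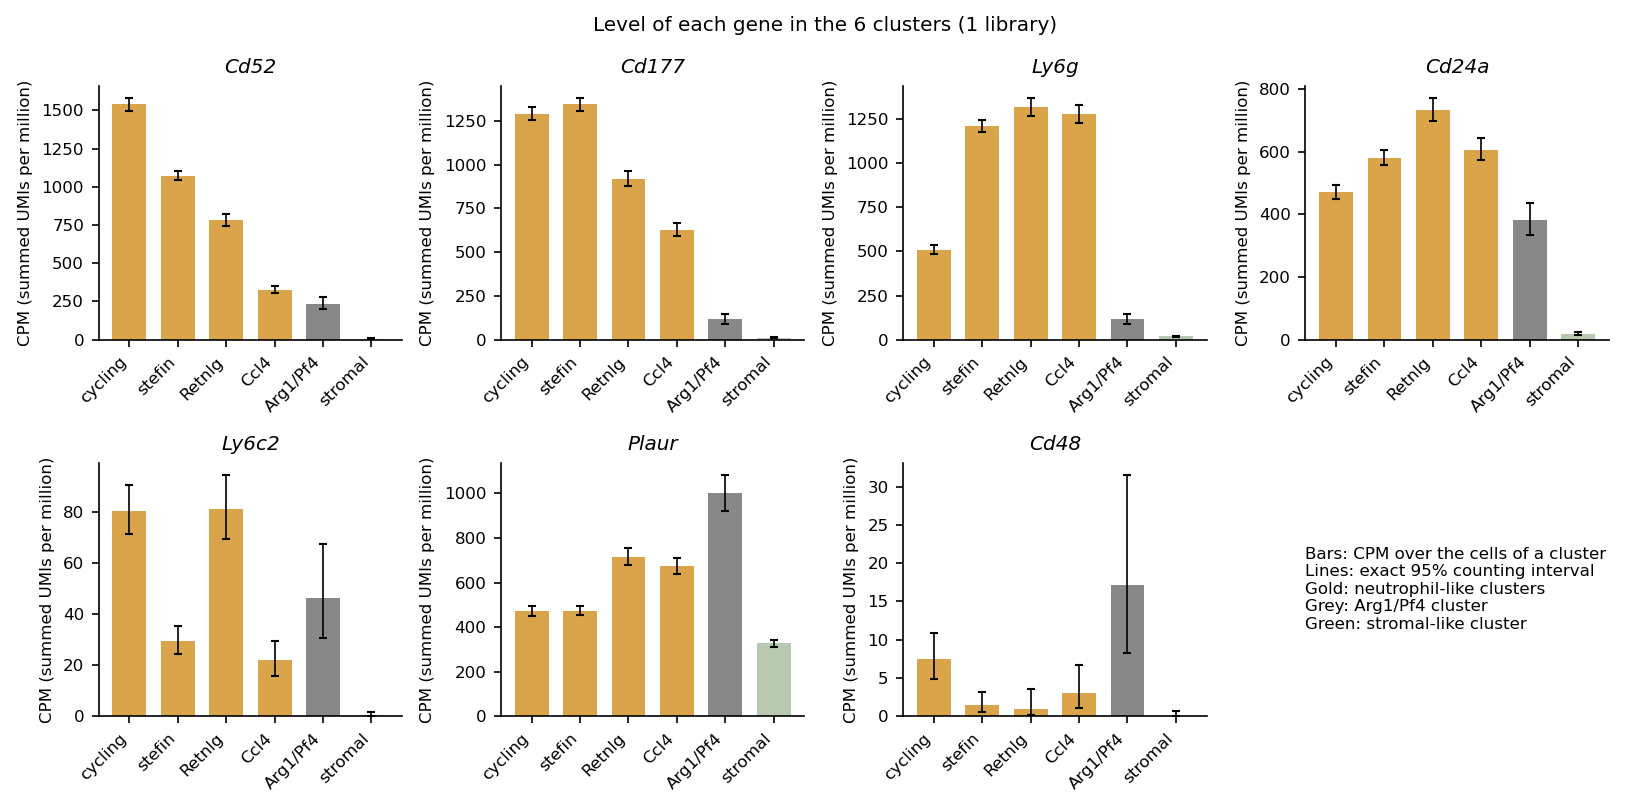
Level of each of the 7 genes (vertical axis, CPM; each panel has its own scale) in the 6 clusters of the library, as bars with exact 95% counting intervals. Cd52 steps down from 1538 CPM in the cycling to 328 CPM in the Ccl4 cluster, Ly6g is lowest of the neutrophil-like clusters in the cycling one (510 CPM), and Plaur alone is well above 0 in the stromal-like cluster (328 CPM).

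Cd52, the target of the lymphocyte-depleting antibody alemtuzumab in humans, was highest in the cycling cluster. Its level was 1538 CPM (1497 to 1580) in the cycling, 1073 (1042 to 1105) in the stefin, 784 (747 to 824) in the Retnlg and 328 (303 to 354) in the Ccl4 cluster, and 235 (198 to 278) in the Arg1/Pf4 cluster. Each cluster was apart from its neighbour in this order by more than its counting interval. The Arg1/Pf4 level was 22.7% of that in neutrophil-like cells, and 1 cell held 20.4% of the Cd52 UMIs of that cluster. In the stromal-like cluster Cd52 was at 7.12 CPM, or 0.688% of its neutrophil-like level of 1036 CPM. The abundant neutrophil genes S100a8 and S100a9 stood there at 0.677% and 0.716% of theirs, so the Cd52 level in stromal-like cells is not read as expression. The source of these UMIs was not tested. With each cell thinned to 1000 UMIs, which left out 171 shallower barcodes, 41.8% (39.6 to 44.1) of neutrophil-like cells had a Cd52 UMI against 1.01% (0.123 to 3.60) of stromal-like cells. Without thinning the shares were 64.3% at a median of 3905 UMIs and 14.3% at a median of 19996.5 UMIs.

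Cd177, a neutrophil surface protein that associates with the integrin CD11b/CD18 and binds PECAM1, was high in both the stefin and the cycling cluster. It stood at 1344 CPM (1309 to 1380) in the stefin and 1291 (1253 to 1329) in the cycling cluster, whose intervals overlapped, then at 921 (880 to 963) in the Retnlg and 629 (594 to 665) in the Ccl4 cluster. The Arg1/Pf4 cluster held 117 CPM (90.7 to 148), 10.3% of the neutrophil-like level, where S100a8 and S100a9 stood at 10.5% and 8.37% of theirs. Its stromal-like level was 0.967% of the neutrophil-like one, close to the shares of S100a8 and S100a9, and 1 stromal-like cell held 23.3% of those 60 UMIs. At 1000 UMIs, 959 of 1919 neutrophil-like cells (47.7% to 52.2%) and 2.53% (0.825 to 5.79) of stromal-like cells had a Cd177 UMI, and without thinning 73.0% and 19.0% did.

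Ly6g, the antigen that defines mouse neutrophils in flow cytometry, was lowest among neutrophil-like clusters where Cd52 was highest. The cycling cluster had 510 CPM (486 to 534), against 1211 (1177 to 1245) in the stefin, 1317 (1268 to 1368) in the Retnlg and 1277 (1227 to 1328) in the Ccl4 cluster. The intervals of the Retnlg and Ccl4 clusters overlapped, as did those of the Ccl4 and stefin clusters. The Arg1/Pf4 cluster had 115 CPM (89.2 to 146), 11.2% of the neutrophil-like level and so near the shares of S100a8 and S100a9 there, and the stromal-like cluster 19.2 CPM, 1.86% of the neutrophil-like level and so above the shares of S100a8 and S100a9. At 1000 UMIs the share of cells with Ly6g was 52.2% (49.95 to 54.5) in neutrophil-like and 0.505% (0.0128 to 2.78) in stromal-like cells, and without thinning it was 75.3% and 27.1%.

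Cd24a, the heat-stable antigen of immature blood cells and a Siglec-G and P-selectin ligand, was present in all 4 neutrophil-like clusters and highest in the Retnlg cluster. Its level ran from 472 CPM (449 to 495) in the cycling through 581 (558 to 605) in the stefin and 607 (573 to 643) in the Ccl4 to 734 (697 to 772) in the Retnlg cluster. The stefin and Ccl4 clusters did not differ beyond their intervals. The Arg1/Pf4 cluster held 381 CPM (333 to 435), and the stromal-like cluster 19.0 CPM, 3.28% of the neutrophil-like level, again above the shares of S100a8 and S100a9. At 1000 UMIs, 806 of 1919 neutrophil-like cells (39.8% to 44.3%) and 3.54% (1.43 to 7.15) of stromal-like cells had a UMI, against 77.1% and 25.2% unthinned.

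Ly6c2, which with its paralog Ly6c1 makes the Ly6C antigen of inflammatory monocytes, was under 100 CPM in every cluster. The Retnlg cluster with 81.5 CPM (69.6 to 94.8) and the cycling cluster with 80.6 (71.4 to 90.6) stood highest, while the stefin had 29.5 (24.5 to 35.3) and the Ccl4 22.0 (15.9 to 29.6). In the Arg1/Pf4 cluster 27 UMIs gave 46.4 CPM (30.6 to 67.5), 29.6% of them in 1 cell. Of the 90-base stretches in the last 500 bases of Ly6c2 transcripts, 19.3% also occurred in Ly6c1, so reads there cannot be given to either gene. Ly6c1 itself had 69 UMIs in neutrophil-like cells against 613 for Ly6c2. In stromal-like cells 3 Ly6c2 UMIs were counted, in 3 of 210 cells, against 14.7% of neutrophil-like cells with one unthinned.

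Plaur, the receptor of the plasminogen activator urokinase (uPAR), was the member with a level in every cluster. It was highest in the Arg1/Pf4 cluster with 1000 CPM (920 to 1085), followed by the Retnlg with 716 (680 to 754) and the Ccl4 with 675 (639 to 712), whose intervals overlapped. The stefin and cycling clusters were alike at 473 (452 to 494) and 471 (448 to 494) CPM. In stromal-like cells Plaur stood at 328 CPM (313 to 343), 59.7% of its neutrophil-like level and far above the shares of S100a8 and S100a9. At 1000 UMIs 24.2% (18.5 to 30.8) of stromal-like and 40.7% (38.4 to 42.9) of neutrophil-like cells had a Plaur UMI, and unthinned the order was the other way, 85.2% against 74.6%, with the deeper stromal-like barcodes. By share of cells at 1000 UMIs the Retnlg cluster was highest (45.7%) and the Arg1/Pf4 cluster had 39.3% (27.1 to 52.7), so the lead of the latter held for summed UMIs and not for shares of cells.

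Cd48 was near the limit of detection. Of its 50 UMIs, 26 were in the cycling cluster, 7.46 CPM (4.87 to 10.9), and 10 in the 62 cells of the Arg1/Pf4 cluster, 17.2 CPM (8.24 to 31.6). The intervals of these clusters overlapped. The stefin, Retnlg and Ccl4 clusters held 6, 2 and 6 UMIs, and the intervals of the stefin (0.533 to 3.16 CPM) and Retnlg (0.118 to 3.52 CPM) clusters lay below that of the cycling cluster. No stromal-like cell held a Cd48 UMI, and at 1000 UMIs only 0.104% of neutrophil-like cells did, so its absence there says little. The last 500 bases of its transcripts shared no 90-base stretch with another gene, whereas 8.39% of such stretches of Cd177 also occurred in other genes. No cluster was apart from its neighbour in the order of Cd48 levels.

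To order the cells, the 1919 neutrophil-like cells with at least 1000 UMIs were scored by the mean of 12 late genes (such as Csf3r, Cxcr2 and Il1b) minus that of 12 early genes (such as Ltf, Camp, Ngp and Mki67), none of them a member, and were cut into 5 bins of 383 or 384 cells. A bin is a range of the score and not a cell type. Genes outside the score moved through the bins in turn. Ms4a3 and Elane of the promyelocyte stood at 47.2 and 14.2 CPM in bin 1 and at 0 in bin 5, Hist1h1b went from 109 to 0 CPM, Retnlg peaked in bin 3 (16364 CPM), and Mmp8 in bin 4 (1575 CPM). Median depth went along the bins from 7755 to 2641 UMIs, and its part in the shares of UMIs was not tested.

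**Figure D2:**
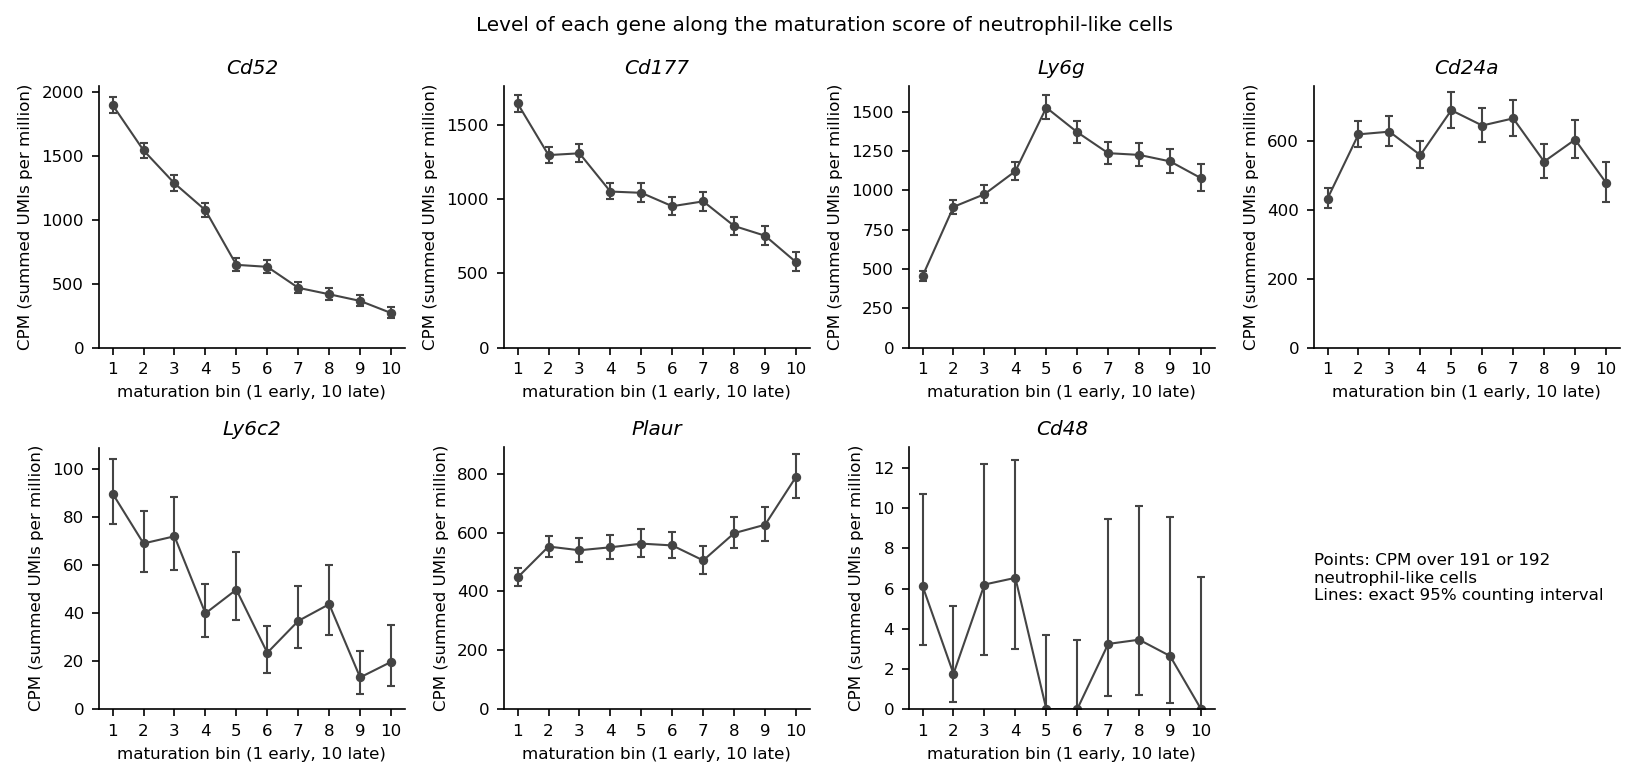
Level of each gene (vertical axis, CPM from 0, own scale per panel) in 10 equal bins of the maturation score of neutrophil-like cells (horizontal axis, 1 early to 10 late), with exact 95% counting intervals. Cd52 descends from 1897 to 270 CPM and Cd177 from 1642 to 575 CPM, Ly6g climbs from 455 to a peak of 1527 CPM in bin 5, and Plaur ends at its highest value, 789 CPM.

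Cd52 declined at every step. It stood at 1732 CPM (1689 to 1775) in bin 1, 1176 (1135 to 1218) in bin 2, 639 (605 to 674) in bin 3, 443 (413 to 475) in bin 4 and 325 (295 to 357) in bin 5. No pair of neighbouring bins overlapped in counting interval. The log2 ratio of the last to the first bin was -2.41 (-2.56 to -2.27), and the share of cells with a UMI at 1000 UMIs went from 73.4% to 20.6%.

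Cd177 declined too, but less steeply. Its level was 1480 CPM (1441 to 1520) in bin 1, 1174 (1133 to 1216) in bin 2, 995 (952 to 1039) in bin 3, 903 (860 to 948) in bin 4 and 677 (633 to 723) in bin 5. The steps were apart from each other throughout. The log2 ratio of last to first bin was -1.13 (-1.23 to -1.03), with 66.9% of cells at 1000 UMIs in bin 1 and 31.6% in bin 5.

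Ly6c2 had a ratio like that of Cd52 on far fewer molecules. From 80.3 CPM (71.3 to 89.98) in bin 1 it came to 55.5 (46.9 to 65.2) in bin 2, 36.3 (28.5 to 45.5) in bin 3, 40.2 (31.4 to 50.6) in bin 4 and 16.0 (9.88 to 24.4) in bin 5. Bins 3 and 4 did not differ beyond their intervals. The log2 ratio of last to first bin was -2.33 (-3.04 to -1.69), from 21 and 294 UMIs.

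Ly6g went the other way and had its peak in the middle. It was at 660 CPM (634 to 687) in bin 1, 1051 (1013 to 1091) in bin 2, 1446 (1395 to 1499) in bin 3, 1231 (1181 to 1284) in bin 4 and 1139 (1082 to 1198) in bin 5. Bin 3 was apart from the bins on both sides, while bins 4 and 5 overlapped. The last to first log2 ratio of 0.79 (0.69 to 0.88) therefore understates the span, and at 1000 UMIs the share of cells was 42.7% in bin 1, 60.9% in bin 3 and 49.6% in bin 5.

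Cd24a was also highest in bin 3, but by less, and its intervals in bins 3 and 4 overlapped. It read 519 CPM (496 to 543) in bin 1, 591 (562 to 621) in bin 2, 665 (631 to 701) in bin 3, 604 (568 to 641) in bin 4 and 550 (510 to 591) in bin 5. Its ends did not differ beyond counting error, with a log2 ratio of 0.08 (-0.04 to 0.21). Plaur varied little over the first 4 bins, at 496 (474 to 520), 545 (517 to 574), 559 (527 to 592) and 550 (516 to 586) CPM, and stood at 696 (651 to 742) in bin 5. Its log2 ratio of last to first bin was 0.49 (0.37 to 0.60), and the last bin was above each of the others beyond the intervals. Cd48 had 15, 17, 0, 6 and 2 UMIs in the bins, too few for an order.

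Read against all genes at 100 CPM or more in the first or last bin (1569 genes), 2 of the 5 members at that level, Cd52 and Cd177, were 2-fold or more lower late, where 17.4% of genes were. Of the same 5 members 0 were 2-fold or more higher, where 32.6% of genes were. The members' median log2 ratio was 0.08 and that of all genes 0.54, so that in CPM the typical gene was higher late. Plaur, at 0.49, rose no more than the typical gene, while Ly6g, at 0.79, rose more.

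The order was also drawn by diffusion pseudotime, on variable genes without the members with its root at the cell richest in Mki67 and Top2a UMIs. Along it Cd52 ran from 1651 over 1188, 737 and 449 to 213 CPM and Cd177 from 1359 over 1362, 1108 and 804 to 471 CPM. Ly6g again was lowest in the first bin (512 CPM) and highest in the third (1418 CPM). Cd24a was lowest in the first bin (466 CPM) and highest in the second (688 CPM). In OVX cells alone the last to first log2 ratio of Cd52 was -2.50 and in sham cells alone -2.63. That of Cd177 was -1.01 in OVX and -1.69 in sham, and that of Ly6g 0.88 in OVX and 0.54 in sham.

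Over 10 bins, the gene whose level ran most like Cd52 among 1758 genes at 100 CPM or more in some bin was Ngp (Pearson r = 0.99 of log2 values), a granule protein gene that is itself in the early list, followed by Pglyrp1 (0.99) and Emp3 (0.99). Pglyrp1 encodes a peptidoglycan-binding protein of specific granules. For Cd177 the closest were Ccnd3 (0.98), Arhgdib (0.98) and Syne1 (0.98), and for Ly6c2 Ssr3 (0.94), Acpp (0.93) and Ncf1 (0.93). Ly6g was closest to Mmp8 (0.97), the collagenase of secondary granules, then to Pirb (0.96) and Sh3glb1 (0.96). Cd24a was closest to Pqlc1 (0.97), Ppp1r18 (0.92) and Cltc (0.92), and Plaur to Fam104a (0.97), Hp1bp3 (0.95) and Eif1 (0.94). For Cd48 no gene exceeded the 0.74 of Prelid1. These correlations are over 10 bins of 1 library, share its depth trend, and are descriptions without a test.

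Among the members themselves, Cd52 and Cd177 (r = 0.95), Cd177 and Ly6c2 (0.87) and Cd52 and Ly6c2 (0.84) ran alike. Opposite profiles without Cd48 were those of Cd177 and Plaur (-0.89), Cd52 and Plaur (-0.75), Ly6c2 and Plaur (-0.69), Cd52 and Ly6g (-0.65), Cd177 and Ly6g (-0.61) and Ly6g and Ly6c2 (-0.59). Both neighbouring gene pairs, on chromosomes 7 and 15, were thus among the opposite ones. Ly6g and Cd24a ran alike (0.73) through their shared peak in the middle bins.

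**Figure D3:**
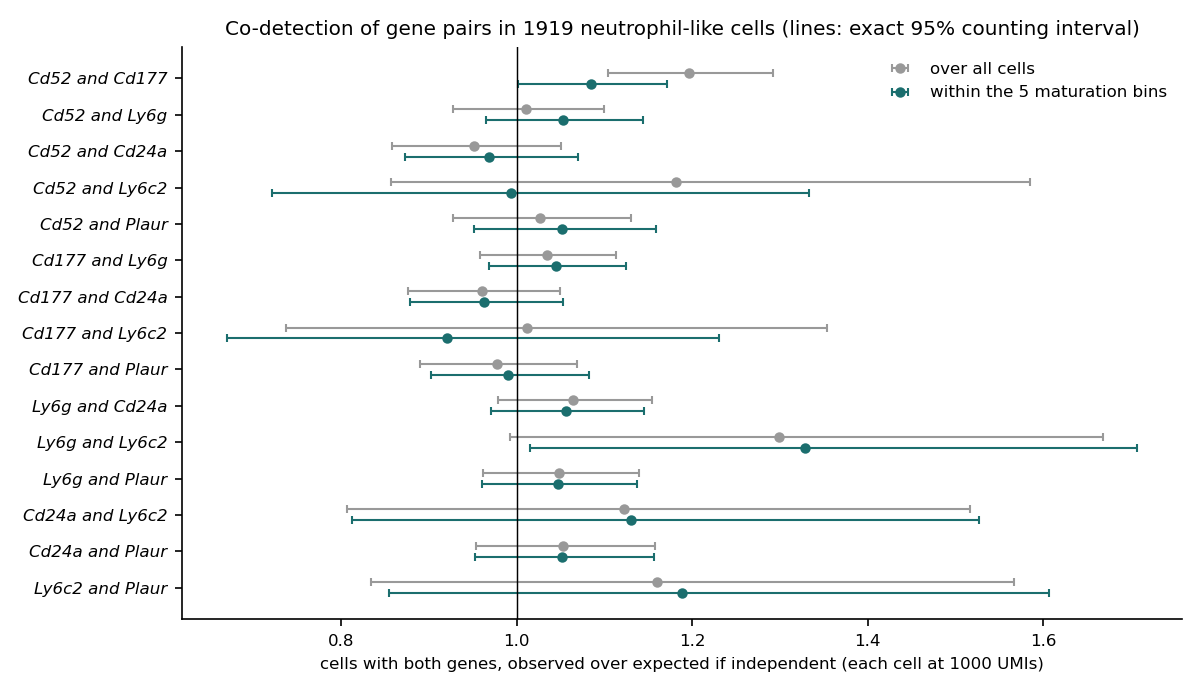
Cells with UMIs of both genes of a pair, as a ratio of observed to expected if the genes were independent (horizontal axis), in 1919 neutrophil-like cells at 1000 UMIs each, for the 15 pairs without Cd48. Grey points are over all cells and teal points are within the 5 maturation bins, with exact 95% counting intervals. Cd52 with Cd177 moves from 1.20 over all cells to 1.08 within bins, and most other intervals hold 1.

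Whether the genes were found in the same cells was asked at 1000 UMIs per cell. Cd52 and Cd177 were both found in 480 cells where independence would give 401, a ratio of 1.20 (1.10 to 1.29). Within maturation bins the expectation was 443 cells and the ratio 1.08 (1.00 to 1.17), so the excess was smaller among cells of like maturation. Cd52 and Ly6g, whose profiles were opposite, were together in 424 cells against 419 expected, a ratio of 1.01 (0.927 to 1.10), and within bins of 1.05 (0.965 to 1.14). The opposite profiles along maturation thus came with no deficit of cells that held both.

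The pair with the largest ratio within bins among those without Cd48 was Ly6g and Ly6c2, with 59 cells against 44.4, or 1.33 (1.02 to 1.71). It was 1.22 with another random seed for thinning and 1.10 without thinning, so its size changed with the draw. The other 13 pairs without Cd48 lay between 0.921 (Cd177 and Ly6c2) and 1.19 (Ly6c2 and Plaur) within bins, and each of their intervals held 1. Cd48 was seen in 2 of these cells and its 6 pairs carry no information.

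The comparison of OVX with sham asks whether the genes differed after ovariectomy. Over all hashtagged cells, Cd52 stood at 872 CPM (852 to 893) in OVX and 692 (672 to 713) in sham, a log2 ratio of 0.33 (0.28 to 0.39). Cd177 stood at 1000 (978 to 1023) and 698 (678 to 719), a log2 ratio of 0.52 (0.47 to 0.57). Ly6g stood at 920 (899 to 941) and 664 (644 to 684), a log2 ratio of 0.47 (0.42 to 0.53). These 3 were higher in the OVX pool, beyond counting error. With equal weight per cell in place of summed UMIs the log2 ratio was 0.34 for Cd52, 0.55 for Cd177 and only 0.15 for Ly6g.

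Cd24a and Plaur were lower in the OVX pool. Cd24a was at 428 CPM (413 to 442) in OVX and 481 (464 to 498) in sham, a log2 ratio of -0.17 (-0.24 to -0.10), and with another hashtag rule (the hashtag with at least 80% of the hashtag UMIs of a barcode), which gave 956 cells to OVX and 1166 to sham, the ratio turned to 0.10. Plaur was at 426 CPM (412 to 440.8) in OVX and 632 (613 to 652) in sham, a log2 ratio of -0.57 (-0.64 to -0.50). Ly6c2 had 34.5 CPM (30.5 to 38.9) in OVX and 47.5 (42.3 to 53.1) in sham, a log2 ratio of -0.46 (-0.70 to -0.22). For Cd48, with 27 and 22 UMIs, the log2 ratio was 0.02 (-0.84 to 0.91).

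Of the 5 members at 100 CPM or more 0 were past a fixed 1.5-fold in either direction over all cells. Of 1456 genes at that level 6.04% were higher and 16.3% lower by that much, and the median log2 ratio of all genes was -0.11. All cells include stromal-like ones, which hold little Cd52, Cd177 and Ly6g. Of the 210 stromal-like cells, 118 carried both hashtags or neither and so were left out of each condition, against 186 of 2077 neutrophil-like cells. In neutrophil-like cells alone (1005 OVX, 886 sham) the log2 ratios were 0.12 (0.07 to 0.18) for Cd52, 0.29 (0.23 to 0.34) for Cd177, 0.23 (0.18 to 0.29) for Ly6g, -0.35 (-0.42 to -0.28) for Cd24a, -0.72 (-0.97 to -0.48) for Ly6c2 and -0.70 (-0.77 to -0.63) for Plaur. Of the 5 members at 100 CPM, 1 (Plaur) was then 1.5-fold or more lower and 0 higher, where 12.0% and 6.38% of 1300 genes were, around a median of -0.08.

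**Figure D4:**
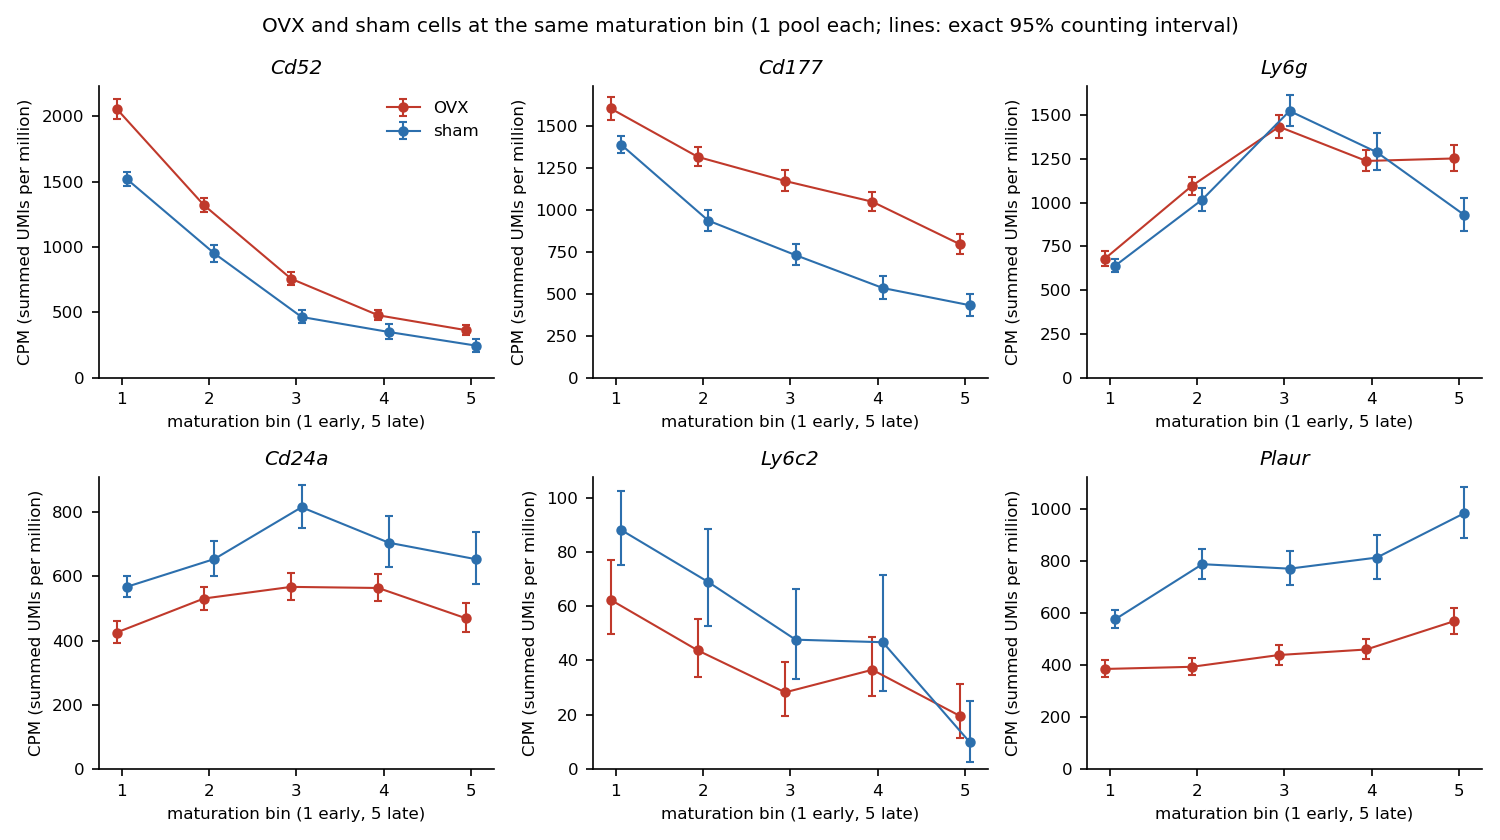
Level of 6 of the genes (vertical axis, CPM from 0, own scale per panel) in OVX cells (red) and sham cells (blue) of the same maturation bin (horizontal axis, 1 early to 5 late), with exact 95% counting intervals and 1 pool per condition. OVX lies above sham in every bin for Cd52 and Cd177 and below it in every bin for Cd24a and Plaur, while the lines of Ly6g cross.

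The conditions did not hold the same mix of clusters or of stages. Of the 4 clusters, the stefin cluster held the largest number of OVX neutrophil-like cells (461 of 1005, against 112 of 886 sham cells) and the Retnlg cluster the largest number of sham ones (311, against 99 OVX cells), while bin 1 held 139 OVX and 193 sham cells and bin 5 held 214 and 152. Levels were therefore set side by side within each bin. A bin matches the score and not the mix of clusters: in bin 2, 143 of 197 OVX cells and 24 of 148 sham cells were of the stefin cluster. The part of this mix in the ratios within bins was not tested. For Cd52 the OVX level was 2059, 1321, 757, 477 and 364 CPM in bins 1 to 5 and the sham level 1519, 951, 464, 349 and 245 CPM. In CPM, OVX was higher in each bin, with log2 ratios from 0.44 to 0.71, a mean of 0.53, and a counting interval above 0 in 5 of 5 bins. The share of cells with a Cd52 UMI at 1000 UMIs was higher in OVX in bins 1 to 4. In bin 5 it was 20.1% in OVX and 21.7% in sham, so the direction there did not hold for shares of cells.

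Cd177 showed the same, with a gap that was wider late. The OVX level was 1604, 1315, 1172, 1048 and 796 CPM in bins 1 to 5 and the sham level 1388, 936, 730, 534 and 431 CPM. The log2 ratio was 0.21 (0.13 to 0.29) in bin 1 and 0.89 (0.64 to 1.13) in bin 5, with a largest value of 0.97 in bin 4, a mean of 0.65 and an interval above 0 in 5 of 5 bins. An interval above 0 in all 5 bins was found for 4.00% of the 1300 genes, among them these 2 members.

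Plaur and Cd24a were lower in OVX in each bin. For Plaur the OVX level was 384, 393, 438, 459 and 567 CPM and the sham level 575, 787, 769, 812 and 982 CPM in bins 1 to 5. The log2 ratios ran from -1.002 in bin 2 to -0.58 in bin 1 with a mean of -0.80. Cd24a stood at 425, 531, 568, 564 and 470 CPM in OVX and at 568, 654, 816, 705 and 654 CPM in sham. Its log2 ratios ran from -0.52 to -0.30 with a mean of -0.41. Both had an interval below 0 in 5 of 5 bins, as did 5.23% of the 1300 genes. By the mean of the bins, 1 of the 5 members at 100 CPM (Cd177) was 1.5-fold or more higher and 1 (Plaur) lower, where 4.92% and 5.23% of genes were, around a median of -0.12.

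Ly6g, in contrast, had no one direction over the bins. The OVX level was 679, 1096, 1434, 1238 and 1252 CPM and the sham level 639, 1018, 1524, 1288 and 930 CPM. Only in bin 5 was the interval of the log2 ratio, 0.43 (0.26 to 0.60), clear of 0, and the mean of the bins was 0.10 against 0.47 over all cells. In neutrophil-like cells without bins it was 0.23, while at 1000 UMIs 53.0% (49.8 to 56.2) of OVX and 52.4% (48.9 to 55.9) of sham cells had a Ly6g UMI. For Ly6c2, with 4 to 169 UMIs a bin and condition, the log2 ratio was below 0 in bins 1 to 4, with an interval below 0 in 3 of them, and in bin 5, with 4 sham UMIs, its interval ran from -0.61 to 3.03. Split by cluster, the log2 ratio of Ly6c2 was -0.55 (-0.96 to -0.15) in the cycling cluster. In the stefin, Retnlg and Ccl4 clusters it was 0.02, 0.38 and 0.54, each with an interval that held 0.

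**Figure D5:**
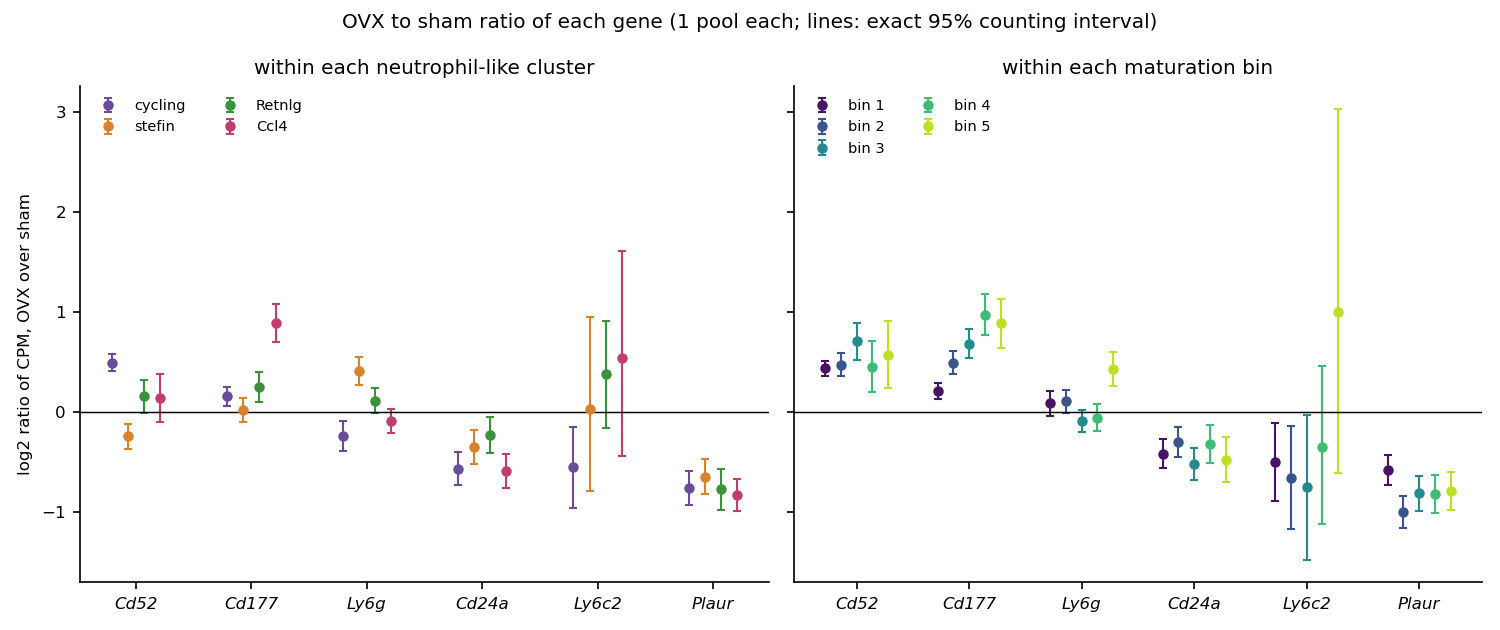
Log2 ratio of CPM, OVX over sham (vertical axis), of 6 of the genes within each of the 4 neutrophil-like clusters (left) and each of the 5 maturation bins (right), with exact 95% counting intervals and 1 pool per condition. Plaur and Cd24a lie below 0 in every cluster and bin, whereas Cd52 lies above 0 in every bin but at -0.24 in the stefin cluster. By share of cells at 1000 UMIs, which is not drawn, Cd52 in the stefin cluster was higher in OVX (49.2% against 44.05%).

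Split by cluster in place of bin, Plaur kept its direction in each of the 4 neutrophil-like clusters, with log2 ratios from -0.83 (Ccl4) to -0.65 (stefin), and so did Cd24a, from -0.59 (Ccl4) to -0.23 (Retnlg). In the stromal-like cluster the log2 ratio of Plaur was -0.05 (-0.24 to 0.14), and in the Arg1/Pf4 cluster -0.17 (-0.45 to 0.10), on 38 and 54 and on 16 and 41 cells. Among the neutrophil-like clusters Cd177 was highest above sham in the Ccl4 cluster, 763 against 411 CPM and a log2 ratio of 0.89 (0.70 to 1.08), and was at 0.02 (-0.10 to 0.14) in the stefin cluster. In the Arg1/Pf4 cluster 45 OVX and 22 sham UMIs gave 2.21 (1.44 to 3.01), and in the stromal-like cluster 25 and 14 gave 1.15 (0.15 to 2.20). Cd177 stood in both clusters near the shares of S100a8 and S100a9. Of all its UMIs there, 1 cell held 20.6% in the Arg1/Pf4 and 23.3% in the stromal-like cluster. Ly6g, also near those shares in the Arg1/Pf4 cluster, had a log2 ratio of 3.32 (2.40 to 4.36) there, from 53 and 12 UMIs. These ratios are not read as a change in expression, and the source of the UMIs was not tested.

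Cd52 was not uniform over clusters. Its log2 ratio was 0.49 (0.41 to 0.58) in the cycling, 0.16 (-0.01 to 0.32) in the Retnlg and 0.14 (-0.10 to 0.38) in the Ccl4 cluster, and -0.24 (-0.37 to -0.12) in the stefin cluster, 1060 CPM in OVX and 1255 in sham. By share of cells with a Cd52 UMI at 1000 UMIs, OVX was higher in the stefin cluster, 49.2% against 44.05% in sham. In the Retnlg cluster OVX was lower, 37.5% against 39.3%. The direction of CPM thus did not hold for shares of cells in these clusters. It did in the cycling and Ccl4 clusters. The differences in share were not tested. The stefin cells of the conditions lay at different stages: of the scored ones, bins 1, 2 and 3 held 45, 143 and 132 OVX and 33, 24 and 21 sham cells. In those bins the stefin cells had 2085, 1369 and 788 CPM in OVX and 1786, 732 and 459 CPM in sham, and so log2 ratios of 0.22, 0.90 and 0.78. Where both conditions had at least 20 cells of a cluster in a bin, which was so 10 times, Cd52 was higher in OVX in 9, with a median log2 ratio of 0.42. The exception was the Retnlg cluster in bin 4, with 322 CPM in OVX and 501 in sham, a log2 ratio of -0.64 (-1.16 to -0.13). In the same 10 sets Cd177 was higher in 9, Cd24a lower in 10 and Plaur lower in 9. These are counts of sign only. Some of the single intervals of each gene held 0, and the share over all genes was not computed.

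With 5 bins of diffusion pseudotime the mean log2 ratio was 0.31 for Cd52, 0.58 for Cd177, -0.01 for Ly6g, -0.50 for Cd24a and -0.79 for Plaur. With the other hashtag rule and the score bins it was 0.53, 0.67, 0.11, -0.42 and -0.78. The direction of the mean for Cd52, Cd177, Cd24a and Plaur was the same in these alternatives and in the mean of the 4 neutrophil-like clusters, which put Cd52 at 0.14, Cd177 at 0.33, Cd24a at -0.43 and Plaur at -0.75. All 3 were chosen after the data were seen. With 1 pool per condition, the effect of surgery and that of the pool cannot be told apart.

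The genes that build and attach the anchor were under 100 CPM, as most genes were. Of 28 such genes counted (of 29 listed), 0 reached 100 CPM in either end bin or condition. Of all 32285 genes, 1569 reached it in either end bin and 1456 in either condition over all cells. The summed level of the anchor genes was 442 CPM in the cycling, 274 in the stefin, 277 in the Retnlg and 283 in the Ccl4 cluster. The highest was Dpm1, a subunit of the mannose donor synthase, at 62.5 CPM in the cycling and 44.3 to 50.3 in the other neutrophil-like clusters. The sum was higher in the Arg1/Pf4 (498 CPM) and stromal-like (515 CPM) clusters.

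Of 38 other GPI-anchored surface proteins counted (of 39 listed), 4 were at 100 CPM or more in the first or last bin, of which 2 were 2-fold or more higher late (32.6% of all genes were) and 1 lower (17.4%), with a median log2 ratio of 0.55. Cd14, the co-receptor for lipopolysaccharide, went from 514 to 1429 CPM (log2 ratio 1.48) and Bst1, an NAD-consuming ectoenzyme, from 226 to 614 CPM (1.44). Mmp25, a GPI-anchored metalloproteinase of neutrophils, went from 396 to 173 CPM (-1.20), as Cd52 and Cd177 did, and Nt5e (CD73) from 429 to 340 CPM (-0.34). Between conditions over all cells, 0 of 5 were 1.5-fold or more higher in OVX (6.04% of all genes were) and 0 lower (16.3%). The log2 ratio there was 0.26 for Cd14, 0.39 for Bst1, 0.11 for Nt5e and -0.44 for Mmp25. In neutrophil-like cells 1 of 4, Mmp25, was 1.5-fold or more lower in OVX (264 against 421 CPM, -0.67), where 12.0% of genes were.

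Among 15 ligands and partners counted (of 16 listed), 4 were at 100 CPM or more along maturation, with a median log2 ratio of 0.32. Of these 4, 0 were 2-fold or more higher late (32.6% of all genes were) and 0 lower (17.4%). The subunits of the integrin CD11b/CD18, with which uPAR and CD177 associate, moved apart, Itgam from 1342 to 2023 CPM (0.59) and Itgb2 from 416 to 252 CPM (-0.72), while Hmgb1, a protein that CD24 binds, stayed at 542 and 561 CPM (0.05). Between conditions over all cells, 1 of 6 was 1.5-fold or more higher in OVX (6.04% of all genes were) and 1 lower (16.3%). The higher one was Siglece, a sialic acid receptor of neutrophils, at 102 against 45.3 CPM, and the lower one Plau, the ligand of uPAR, at 140 against 251 CPM, and both were named after their values were seen. Plau came mostly from the stromal-like cluster, with 653 CPM there and 30.6 to 60.8 in the neutrophil-like ones. In neutrophil-like cells Siglece stood at 124 against 64.1 CPM (log2 ratio 0.95) and Plau at 50.7 against 47.8 CPM (0.08).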

How the data were processed

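The authors aligned the reads of 1 hashed 10x 3′ library to mm10 with Cell Ranger (6.0.0 in the header of the matrix, 6.0.1 in the submitters' processing notes) and deposited its raw UMI counts of 32285 genes and 2 hashtags, not normalized, in 2349 called barcodes. Barcode calling is thus part of the deposited counts, and reads that map to more than 1 gene are not in them. The notes also list featureCounts 1.5.0-p3. Hashtag counts were read from the same matrix.

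The 7 genes, the gene lists and the scores were chosen with earlier results of these data known. Conditions came from hashtag counts by HTODemux (Seurat 5.3.0, R 4.3.3, positive quantile 0.99). Clusters came from scanpy 1.11.5 and Louvain clustering (igraph 0.11.9, resolution 0.3) on counts scaled to 10000 per cell, 2000 variable genes, 30 principal components and 15 neighbors. No doublet caller was run, and barcodes with both hashtags or neither were left out of comparisons of OVX with sham only. CPM is summed UMIs scaled to 1000000. Thinning drew 1000 UMIs per cell with a fixed seed. Intervals are exact at 95% (Poisson for CPM, Clopper-Pearson for shares, conditional binomial for ratios). They cover counting error only, and with 1 pool per condition no p-value was made. Genes enter counts past a fold (2 for bins, 1.5 for conditions) at 100 CPM or more in either group. Genes named are the 7 members, up to 4 of each list by CPM, fixed markers and score genes, and for each member the 3 genes with the highest Pearson r of log2(CPM + 10) over 10 bins. Positions and 90-base sharing are from GENCODE vM21, promoters from RefSeq (GRCm38.p6), aligned with Biopython 1.88. The calculations were checked on simulated data. Alternatives were a barcode filter (at least 500 genes, at most 10% mitochondrial UMIs), equal weight per cell, 500 UMIs, no thinning, another seed, other bins, scores and orders, 1 condition at a time, the hashtag holding at least 80% of at least 10 hashtag UMIs, and leaving out the 1% of cells with the most UMIs of the gene.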

Additional observations from a re-analysis of the deposited data

Results flagged for a closer look

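The log2 ratio of OVX to sham lay on opposite sides of 0, each beyond its counting interval, in 2 neutrophil-like clusters for 2 of the genes. Cd52 was at -0.24 in the stefin cluster and at 0.49 in the cycling cluster. Ly6g was at 0.41 in the stefin cluster and at -0.24 in the cycling cluster, the reverse of Cd52. By share of cells at 1000 UMIs, Cd52 was higher in OVX in both clusters. The shares were 49.2% in OVX and 44.05% in sham in the stefin cluster, and 77.5% and 61.02% in the cycling cluster. The opposite sign of Cd52 thus held for CPM and not for shares of cells. For Ly6g the shares went with CPM, at 56.9% and 41.7% in the stefin and 28.3% and 37.3% in the cycling cluster. The difference between clusters was not tested, since each condition is 1 pool. The OVX and sham cells of the stefin cluster lay at different maturation stages, and its part in these values was not tested for Ly6g. Within the bins that held at least 20 stefin cells of each condition, the ratio of Ly6g was 0.62, 0.57 and 0.07 in bins 1, 2 and 3, and that of Cd52 was 0.22, 0.90 and 0.78.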

How the results depend on the processing

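Along maturation, 4 of 7 members had a last to first log2 ratio of -1 or lower, of which Cd48 (-1.43, interval -4.60 to 0.68) rests on 2 and 15 UMIs, and the alternatives gave 3 or 4. Among the 5 members at 100 CPM or more, 2 had such a ratio, where 17.4% of 1569 genes did. Of the single values under alternatives, 36 stayed within the counting interval, 19 moved out of it and 0 changed sign. Of those for OVX to sham 23 stayed, 32 moved out with the same sign and 4 moved out with a changed sign. Among those that stayed, Cd48 went from 0.02 to -0.07 without the 1% of cells with the most UMIs of the gene. The number of members highest in a neutrophil-like cluster was 5, also with equal weight per cell and with the barcode filter. By share of cells at 1000 or at 500 UMIs it was 7, as Plaur and Cd48 were no longer highest in the Arg1/Pf4 cluster. The share of all genes that are highest in a neutrophil-like cluster was not computed, so these numbers are not read as particular to the members. Between OVX and sham over all cells, 0 of 7 members were past 1.5-fold, 5 of them at 100 CPM or more. Of all genes at 100 CPM or more, 6.04% were higher and 16.3% lower. The count of members was 2 with the other hashtag rule, 1 with equal weight per cell, 2 in neutrophil-like cells only, 2 by the mean of the 5 maturation bins, 2 by that mean with the other hashtag rule, 1 by the mean of 5 pseudotime bins and 1 by the mean of the 4 neutrophil-like clusters, the last 3 chosen after the data were seen. Of genes at 100 CPM or more, 6.38% were higher and 12.0% lower in neutrophil-like cells. By the mean of the 5 maturation bins 4.92% were higher and 5.23% lower. For the settings other than these and all cells, no share over all genes was computed. Their counts are therefore not read as results about the members. The 2 in neutrophil-like cells include Ly6c2, which lay under 100 CPM. Of the 5 members at 100 CPM or more, 1 (Plaur) was past 1.5-fold there. The ratio of Cd24a was 0.10 with the other hashtag rule against -0.17, that of Ly6g -0.00676 by pseudotime bins against 0.47, and that of Ly6c2 0.0205 by pseudotime bins and 0.10 by the mean of clusters against -0.46. Pairs with a within-bin count 25% or more above expectation numbered 1 at 1000 UMIs (Ly6g and Ly6c2), 3 at 500 UMIs and 1 without thinning, all of these with Cd48, and 0 with another seed. Shares of cells at 1000 UMIs as the level were added after the data were seen. The causes of these changes were not tested. Depth limits Cd48 (50 UMIs) and Ly6c2 (643 UMIs). No paired analysis was possible because the series has 1 library and no test.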
